A study of Mus musculus with 16 samples.

Results

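Cells that answer inflammatory signals also make proteins that end or shape the answer. Described here are 7 genes for such proteins in mouse lungs exposed to second-hand smoke (SHS): Nfkbia, Tnfaip3, Bcl3, Nfkbiz, Zfp36, Zc3h12a and Socs3. They were chosen by name as inducible feedback genes of NF-kB and cytokine signalling, with earlier results of these data known. Most encode brakes, while the Bcl3 and Nfkbiz proteins can also raise transcription. Every probe set to which the array's annotation gives 1 of these symbols and no other was used. This gave 17 probe sets (5 for Nfkbia, 3 each for Nfkbiz and Socs3, 2 each for Tnfaip3 and Zc3h12a and 1 each for Zfp36 and Bcl3) among 45037 tested, and the 7 genes were among 18193 with such a probe set.

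NF-kB is a family of transcription factors that stay in the cytoplasm, bound by inhibitor proteins, until a signal such as tumour necrosis factor, interleukin 1 or bacterial endotoxin releases them. Among the genes that NF-kB then switches on are its own inhibitors, so that the signal limits itself. Other brakes act further along, by destroying cytokine mRNAs or by blocking the kinases through which cytokine receptors signal, and in the lung these controls limit the response to inhaled particles and microbes.

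The study measured total RNA of the left lung from male Balb/c mice aged 15 weeks on Affymetrix Mouse 430 2.0 arrays, 4 per group and 16 in all. Group AS had filtered air in utero and SHS as adults, AA had air at both times, SS had SHS at both times and SA had SHS in utero and air as adults. SHS was sidestream smoke at 10 mg/m3 of suspended particles for 5 hours a day, 7 days a week. The labels give no litter, hour of collection or hybridisation batch.

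All values are log2 expression as deposited, and the medians of the 16 arrays lay between 6.902 and 6.934. Arrays 3 and 4 of AS were near-identical, as were arrays 1 and 2 of SS: their root mean square difference at bright, variable probe sets was 0.0983 for the AS pair and 0.0721 for the SS pair, while the remaining 22 pairs within groups gave 0.313 to 0.739. The AS pair also stood apart array-wide: at the 3000 least variable bright probe sets its arrays differed from AS replicates 1 and 2 by 0.207 to 0.257, against 0.0728 to 0.132 in the other unaveraged pairs within groups. The mean of each such pair was used as a single sample, so 3 AS, 4 AA, 3 SS and 4 SA samples entered the tests. Lung markers were bright, with mean values of 15.07 for Sftpc of alveolar type 2 cells, 14.95 for Scgb1a1 of club cells and 14.40 for Ager of alveolar type 1 cells. In RNA of a whole lung, fewer cells of a type and less RNA per cell cannot be told apart. The probe set with the highest mean over the samples, called the brightest, stands for a gene with several, and levels are not compared between probe sets.

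Adult SHS went with higher expression of Nfkbia, Zfp36, Tnfaip3 and, at 1 of its probe sets, Socs3, while Bcl3, Nfkbiz and Zc3h12a passed at none. With the mean of AS and SS set against the mean of AA and SA, 9 of the 17 probe sets rose and 0 fell (limma, adjusted p under 0.05 after Benjamini-Hochberg over all probe sets): all 5 of Nfkbia, both of Tnfaip3, that of Zfp36 and 1 of Socs3. Over all probe sets 2.82% rose and 3.13% fell in this comparison. The 7 genes, and the gene lists counted further on, were chosen with earlier results of these data known. Their counts beside all probe sets are therefore descriptions. The median difference of the 17 was 0.28, against 0.01 over all probe sets. After air in utero (AS minus AA), 3 probe sets rose, 2 of Nfkbia and that of Zfp36, where 0.591% of all probe sets rose. After SHS in utero (SS minus SA), 4 rose, all of Nfkbia, where 0.773% of all rose. The AS values lay entirely above the AA values at 7 of the 17, against 8.73% of all probe sets. These were all 5 of Nfkbia, 1 of Tnfaip3 and that of Zfp36. The SS values lay entirely above the SA values at 7, against 7.97% of all. These were 4 of Nfkbia and 1 each of Tnfaip3, Socs3 and Bcl3. Probe sets of 1 gene are not independent, so these counts are not counts of genes.

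The promoters of the 3 genes whose brightest probe set rose in that combined adult comparison are shown first. The sequences are the 250 bases before the annotated start in RefSeq's table of GRCm38.p6, on the gene's own strand, which is the minus strand for all 3. Nfkbia covers chromosome 12 from 55489409 to 55492647 and its promoter is chr12:55492648-55492897. Tnfaip3 covers chromosome 10 from 19000910 to 19015410, with the promoter of its outermost start at chr10:19015411-19015660; the table also holds an inner Tnfaip3 start, whose 250 bases at chr10:19011964-19012213 had 0 bases in motifs and are not printed. Zfp36 covers chromosome 7 from 28376784 to 28379228, with the promoter at chr7:28379229-28379478. Capitals mark every match to the motifs searched.
Nfkbia: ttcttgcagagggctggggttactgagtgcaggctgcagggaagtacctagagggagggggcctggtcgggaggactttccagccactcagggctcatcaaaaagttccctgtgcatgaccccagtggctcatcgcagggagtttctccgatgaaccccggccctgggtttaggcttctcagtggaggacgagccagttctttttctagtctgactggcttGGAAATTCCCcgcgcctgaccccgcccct
Tnfaip3: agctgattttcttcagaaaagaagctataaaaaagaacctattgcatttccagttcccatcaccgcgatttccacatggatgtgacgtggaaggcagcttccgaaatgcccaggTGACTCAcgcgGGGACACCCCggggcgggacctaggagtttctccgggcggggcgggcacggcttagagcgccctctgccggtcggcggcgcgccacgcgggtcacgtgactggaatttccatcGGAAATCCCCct
Zfp36: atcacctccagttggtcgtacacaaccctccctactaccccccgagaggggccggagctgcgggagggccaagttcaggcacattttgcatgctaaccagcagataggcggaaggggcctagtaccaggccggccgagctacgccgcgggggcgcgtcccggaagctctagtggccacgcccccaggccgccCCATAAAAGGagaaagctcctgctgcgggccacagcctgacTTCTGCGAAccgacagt

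The search covered both strands for the NF-kB consensus, the STAT motif TTCNNNGAA, the CArG box bound by serum response factor, the AP-1 motif TGANTCA, the cyclic AMP motif TGACGTCA and the glucocorticoid receptor motif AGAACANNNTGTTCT, and no matches overlapped in the 3 sequences. In the Nfkbia promoter the capitals are an NF-kB match at -29 to -20, counted back from the start site. The Tnfaip3 promoter holds an AP-1 match at -136 to -130 and NF-kB matches at -125 to -116 and at -12 to -3. Zfp36 has a CArG box at -58 to -49 and a STAT match at -17 to -9. An NF-kB match occurs in 7.28% of the table's 32536 promoters, a STAT match in 7.04%, an AP-1 match in 6.73% and a CArG box in 1.48%. The cyclic AMP motif (1.56% of promoters) and the glucocorticoid motif (0.00922%) were in none of the 3 windows. A match in these letters is a description and shows no binding.

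Nfkbia encodes IkBα, the inhibitor that captures NF-kB and returns it to the cytoplasm, and it was the member that rose after adult SHS with either history. Its brightest probe set, 1420088_at, had 13.81, 13.69 and 13.70 in AS lungs, against 13.50, 13.41, 13.60 and 13.45 in AA lungs. It had 13.69, 13.75 and 13.54 in SS lungs, against 13.30, 13.21, 13.15 and 13.23 in SA lungs. Each set of smoke-exposed adults lay above its air counterpart without overlap, and the 4 SA lungs were the lowest of all 14. The difference was 0.44 ± 0.07 for SS minus SA (SE, 1.35-fold, adjusted p = 0.00719) and 0.24 ± 0.07 for AS minus AA, which missed the threshold (adjusted p = 0.0923). The group means ran AS, SS, AA and SA from high to low, at 13.73 ± 0.07, 13.66 ± 0.11, 13.49 ± 0.08 and 13.22 ± 0.06 (SD), and among neighbours in that order only AA and SA did not overlap. This probe set lay at the 99.7th percentile of mean expression.

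Of the 4 dimmer Nfkbia probe sets, 3 had larger differences than the brightest in both adult pairs. At 1438157_s_at the values were 13.13, 12.99 and 12.95 in AS lungs, against 12.65, 12.44, 12.68 and 12.36 in AA lungs. The same probe set had 12.91, 13.03 and 12.77 in SS lungs, against 12.31, 12.24, 12.08 and 12.10 in SA lungs. It passed in both, with a rise of 0.49 ± 0.09 for AS minus AA (1.41-fold, adjusted p = 0.023) and of 0.72 ± 0.09 for SS minus SA (1.65-fold, adjusted p = 0.0017). At 1448306_at AS lungs had 12.33, 11.80 and 12.52, against 11.65, 11.20, 11.57 and 11.10 in AA lungs, and SS lungs had 11.90, 12.20 and 11.63, against 11.06, 11.03, 11.00 and 10.95 in SA lungs. The rises there were 0.84 ± 0.17 (1.79-fold, adjusted p = 0.0288) and 0.90 ± 0.17 (1.86-fold, adjusted p = 0.0147) for AS minus AA and SS minus SA, and the 4 SA lungs were below every other lung. Probe set 1449731_s_at rose by 0.70 ± 0.15 for SS minus SA (adjusted p = 0.0349) and had 0.60 for AS minus AA (adjusted p = 0.0608). The dimmest, 1420089_at, had 0.28 in each comparison and passed only in the combined one (adjusted p = 0.0485).

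**Figure D1:**
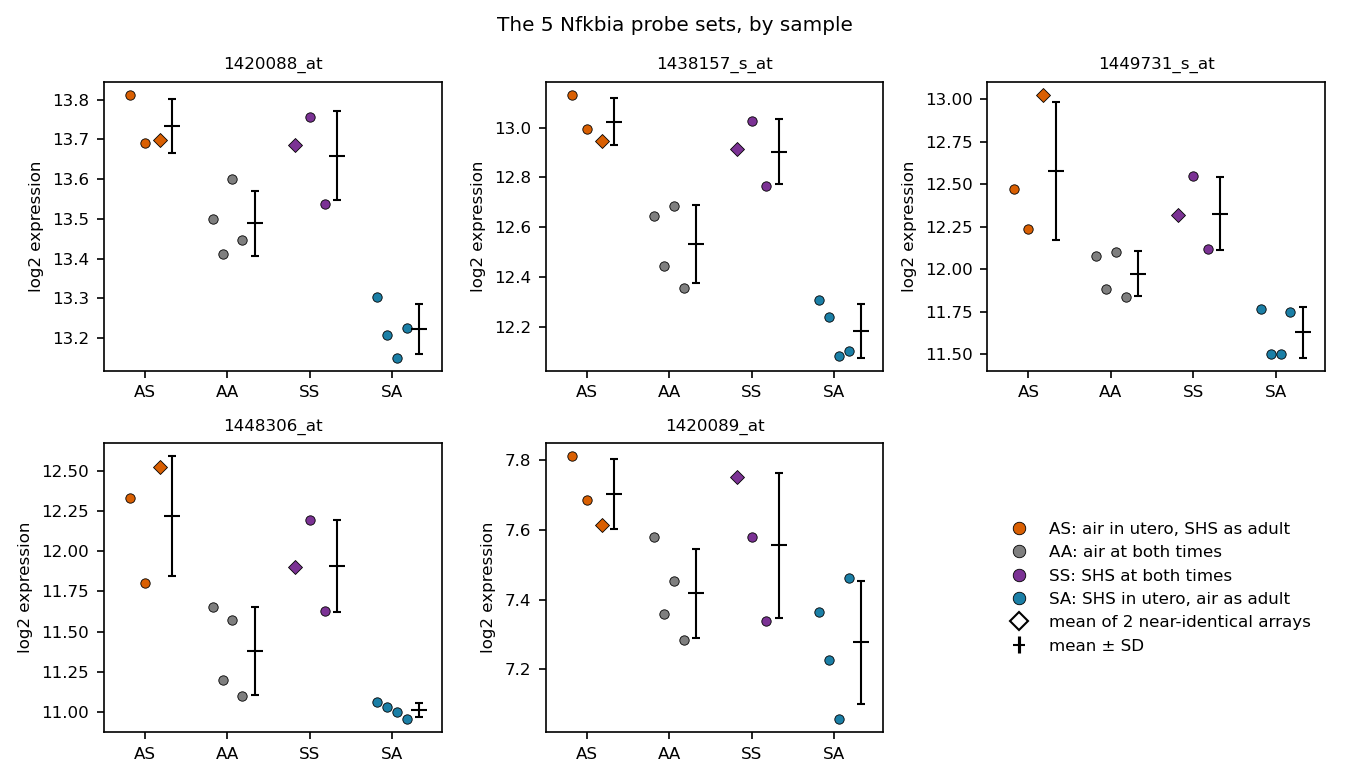
The 5 Nfkbia probe sets in every sample, on the log2 scale, by group (AS, AA, SS, SA), with the group mean and SD beside the points; diamonds are averages of 2 near-identical arrays. At 4 of the 5 probe sets the AS points lie above all AA points and the SS points above all SA points, as at 1438157_s_at, where SA lungs reach no higher than 12.31.

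Several of these calls rested on single samples. For AS minus AA, 1438157_s_at passed no longer without AA replicate 2 (0.46) or AS replicate 1 (0.44), and 1448306_at no longer without AA replicate 2 (0.78), AA replicate 4 (0.75), AS replicate 1 (0.79) or the averaged AS sample (0.69). Both calls were also lost with only the AS and AA lungs in the fit (adjusted p = 0.112 and 0.135) and with both averaged samples left out (adjusted p = 0.062 and 0.142). For SS minus SA, 1438157_s_at passed whichever sample was left out, while leaving out SS replicate 3 ended the calls of 1420088_at (0.39), 1448306_at (0.75) and 1449731_s_at (0.59). The averaged SS sample was also needed for 1448306_at (0.90 without it) and 1449731_s_at (0.70), 1448306_at had an adjusted p of 0.0507 with both averaged samples left out, and SA replicates 2 and 3 were needed for 1449731_s_at (0.66 without either). In the combined comparison 1420089_at kept its call only without AA replicate 1, SA replicate 4 or SS replicate 4.

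Tnfaip3 encodes A20, a ubiquitin-editing enzyme that takes apart the signalling complexes upstream of the NF-kB kinases. At its brightest probe set, 1433699_at, AS lungs had 10.14, 10.37 and 9.90, against 9.51, 9.25, 9.93 and 9.36 in AA lungs. In SS lungs it had 9.73, 10.04 and 9.45, against 9.24, 9.55, 9.38 and 9.38 in SA lungs. The groups overlapped in both pairs: AA replicate 3 exceeded the lowest AS value, and SS replicate 4 lay among the SA lungs. The combined adult difference was 0.49 ± 0.11 (1.40-fold, adjusted p = 0.0258), and the second probe set, 1450829_at, rose by 0.50 ± 0.10 (1.42-fold, adjusted p = 0.0148). AS minus AA alone was 0.62 ± 0.16 (adjusted p = 0.0637) and 0.62 ± 0.15 (adjusted p = 0.0504) at these probe sets, and SS minus SA was 0.35 and 0.38 (adjusted p = 0.34 and 0.243). The means ran AS, SS, AA and SA from high to low, each overlapping the next. The combined call of 1433699_at was lost without AA replicate 2 (0.44), the averaged SS sample (0.49) or SS replicate 3 (0.41), and without AA replicate 3 AS minus AA passed there (0.76, adjusted p = 0.0276).

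Bcl3 and Nfkbiz encode atypical IkB proteins, which act in the nucleus on NF-kB dimers already at DNA and can raise or lower transcription there. Bcl3, at 1418133_at, had 7.86, 7.88 and 8.17 in AS lungs, against 8.03, 7.94, 8.48 and 7.87 in AA lungs, and these overlapped. It had 8.28, 8.38 and 8.32 in SS lungs, against 7.83, 7.74, 8.05 and 8.19 in SA lungs. The 3 SS values lay close together, above all SA and all AS values, but AA replicate 3 was the highest of the 14. SS minus SA was 0.37 ± 0.14 (95% interval 0.08 to 0.67, adjusted p = 0.219) and AS minus AA was -0.11 ± 0.14 (adjusted p = 0.677). The means ran SS, AA, AS and SA from high to low, each overlapping the next.

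Nfkbiz, needed in mouse macrophages for the induction of a set of secondary response genes such as Il6, split the AS lungs. Its brightest probe set, 1417483_at, had 10.23, 10.90 and 9.47 in AS lungs, against 9.91, 10.07, 9.86 and 9.96 in AA lungs, so the AS samples lay on either side of the narrow AA range. SS lungs had 9.45, 9.59 and 9.54, against 10.15, 9.90, 9.69 and 9.70 in SA lungs, and every SS value was below every SA value. At the dimmer Nfkbiz probe sets, 1457404_at and 1448728_a_at, SS and SA lungs overlapped. The AA range was wider at 1457404_at, from 9.45 to 10.31. No comparison passed at the 3 Nfkbiz probe sets. At the brightest, SS minus SA was -0.33 ± 0.22 (limma, adjusted p = 0.541) and AS minus AA was 0.25 ± 0.22 (adjusted p = 0.538). The low AS value is the averaged pair, whose arrays had 9.46 and 9.48. For SS minus AS the difference was -0.68 ± 0.24 (adjusted p = 0.224), and without that averaged AS sample it was -1.04 and passed (adjusted p = 0.00902). The means ran AS, AA, SA and SS from high to low, and only SA and SS did not overlap.

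Markers of neutrophils, phagocytes that enter inflamed airways, were also uneven among the AS lungs. Of 8 such markers 7 were measured, and their mean relative to the AA mean was 0.62, 0.56 and -0.43 in the 3 AS samples, -0.59 to 0.63 in AA, -0.25 to 0.05 in SS and -0.60 to 0.13 in SA. The sample with the low Nfkbiz value had the low neutrophil mean among the AS lungs. Among the AA lungs, replicate 2 had the lowest neutrophil mean (-0.59) and the highest Nfkbiz value (10.07). Over the 14 samples Nfkbiz and the neutrophil mean had a Pearson r of 0.56 (0.52 after subtraction of group means). None of the 7 markers passed in any of the adult comparisons, and their part in the Nfkbiz values was not tested.

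Zfp36 encodes tristetraprolin, which binds AU-rich elements in mRNAs such as that of tumour necrosis factor and speeds their decay, and it had the largest AS minus AA difference of the 7 genes. Its only probe set, 1452519_a_at, had 12.60, 12.67 and 11.94 in AS lungs, against 11.38, 11.23, 10.91 and 10.80 in AA lungs. In SS lungs it had 10.67, 10.86 and 10.50, against 10.52, 10.54, 10.22 and 10.38 in SA lungs. The 3 AS lungs were above all 11 others, whereas SS and SA lungs overlapped. Zfp36 rose by 1.32 ± 0.17 for AS minus AA (95% interval 0.96 to 1.69, 2.50-fold, adjusted p = 0.00288). For SS minus SA it had 0.26 ± 0.17 (95% interval -0.10 to 0.63, adjusted p = 0.526), so the combined adult rise of 0.79 ± 0.12 (adjusted p = 0.00338) averages a large and a small difference. The means ran AS, AA, SS and SA from high to low, at 12.40 ± 0.41, 11.08 ± 0.27, 10.68 ± 0.18 and 10.41 ± 0.15 (SD), and among neighbours only AS and AA did not overlap. Leaving out any 1 sample kept the AS minus AA call, but with only the AS and AA lungs in the fit the adjusted p was 0.0517.

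Zc3h12a encodes Regnase-1, an endonuclease that cuts cytokine mRNAs such as that of Il6 at stem-loops. Its brightest probe set, 1427348_at, had 6.94, 7.28 and 7.26 in AS lungs, against 6.49, 6.99, 6.83 and 6.57 in AA lungs. It had 6.76, 6.80 and 6.84 in SS lungs, against 6.74, 6.69, 6.78 and 6.60 in SA lungs. Both pairs overlapped slightly: AA replicate 2 exceeded AS replicate 1, and SA replicate 3 exceeded the averaged SS sample. AS minus AA was 0.44 ± 0.11 (1.36-fold) and just missed the threshold (adjusted p = 0.0601), and SS minus SA was 0.10 ± 0.11 (adjusted p = 0.753). Without AA replicate 2 (0.53) or AS replicate 1 (0.55) AS minus AA passed. The combined adult difference at 1427348_at was 0.27 ± 0.08 and also just missed the threshold (limma, adjusted p = 0.058). It passed in 7 of 23 alternative fits. The dimmer 1443993_at had 0.19 for AS minus AA (adjusted p = 0.322). The means ran AS, SS, AA and SA from high to low, and only AS and SS did not overlap.

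Socs3, induced by the STAT3 arm of interleukin 6 signalling, binds the receptor chain gp130 and its kinases and shuts that signal down. Its probe sets did not give 1 answer. The brightest, 1455899_x_at, had 10.59, 11.01 and 9.98 in AS lungs, against 10.38, 10.71, 11.10 and 10.60 in AA lungs. It had 11.09, 10.48 and 10.88 in SS lungs, against 10.46, 10.74, 10.25 and 10.59 in SA lungs. All 4 groups overlapped there, the means ran SS, AA, AS and SA from high to low, and the combined adult difference was 0.07 ± 0.15 (adjusted p = 0.816).

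At the dimmer Socs3 probe set 1416576_at the values were 9.22, 9.15 and 9.34 in AS lungs, against 8.80, 8.92, 9.35 and 8.70 in AA lungs. The same probe set had 9.33, 8.95 and 9.10 in SS lungs, against 8.52, 8.75, 8.58 and 8.69 in SA lungs. Only AA replicate 3 overlapped the AS lungs, and the SS lungs were entirely above the SA lungs. The combined adult difference passed, at 0.39 ± 0.09 (1.31-fold, adjusted p = 0.0266), and was lost without the averaged AS sample (0.36), SA replicate 1 (0.37), SA replicate 3 (0.38), the averaged SS sample (0.34) or SS replicate 4 (0.40). Names ending in x_at mark probe sets whose probes can also match other transcripts, which holds for the 2 brighter Socs3 probe sets and not for 1416576_at. The remaining one, 1456212_x_at, had 0.26 ± 0.10 in the combined comparison (adjusted p = 0.13).

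**Figure D2:**
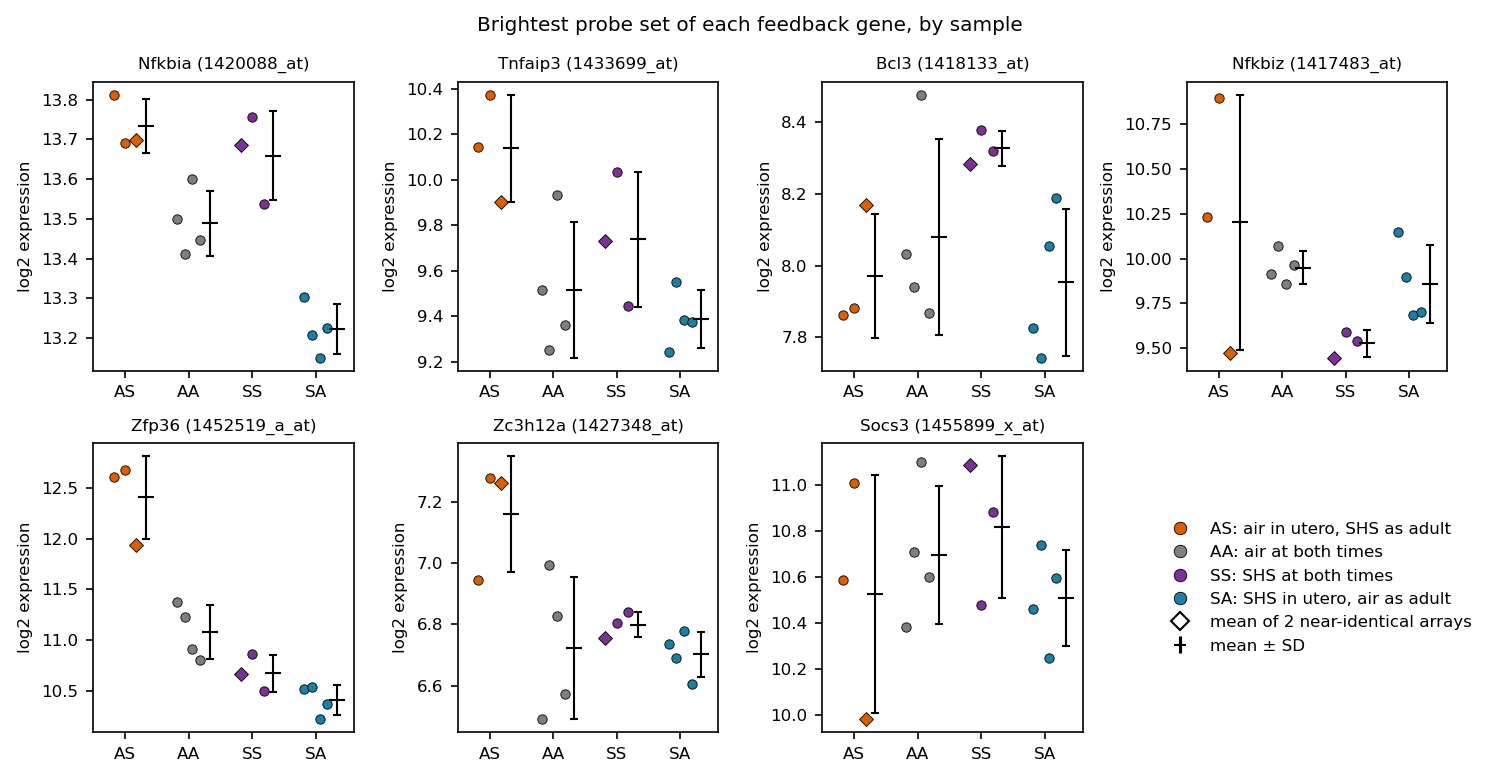
The brightest probe set of each of the 7 genes in every sample, on the log2 scale, by group (AS, AA, SS, SA), with the group mean and SD beside the points; diamonds are averages of 2 near-identical arrays and each panel has its own scale. The Zfp36 panel shows the AS lungs between 11.94 and 12.67, above all others, and the Nfkbia panel shows the SA lungs lowest, between 13.15 and 13.30.

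SHS before birth was compared at each adult exposure. Among adults in smoke (SS minus AS), 1 of the 17 probe sets fell, where 0.357% of all probe sets fell: Zfp36 fell by 1.73 ± 0.18 on the log2 scale, to 0.302 times the AS level (adjusted p = 0.000424), and the SS and AS values did not overlap. Nfkbia had -0.07 ± 0.08 at its brightest (95% interval -0.24 to 0.09), Tnfaip3 had -0.40 ± 0.17 (adjusted p = 0.324) and Zc3h12a had -0.36 ± 0.12 (adjusted p = 0.19), with all SS values below all AS values for Zc3h12a. Nfkbiz came near the threshold at its dimmest probe set, 1448728_a_at (-0.71 ± 0.18, adjusted p = 0.0907). Bcl3 had the opposite sign, 0.36 ± 0.15 (adjusted p = 0.303). Without the averaged AS sample, the 3 Nfkbiz probe sets passed beside Zfp36 and the count was 4.

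Median differences of B cell and natural killer (NK) cell markers were negative for SS minus AS and for SS minus SA. Of 4 B cell markers 3 were measured, and their mean relative to AA was -0.80, -1.23 and -0.63 in SS lungs, below every other sample (-0.16 to 0.72 in AS, -0.59 to 0.43 in AA and -0.32 to 0.31 in SA). Their median difference was -1.22 for SS minus AS and -0.75 for SS minus SA; Cd79a alone passed, and fell by 1.31 for SS minus AS (adjusted p = 0.0125). Of 3 NK cell markers 2 were measured, with medians of -0.57 and -0.63 in these comparisons, and none passed. Their mean relative to AA was -0.45, -0.42 and -0.82 in SS lungs, and AA replicate 2 (-0.49) lay among these. For SS minus AS the medians of the neutrophil and T cell markers were also negative (-0.40 and -0.30). For SS minus SA they were 0.10 and -0.03, and none of these markers passed in either comparison. Of 5 interstitial macrophage and monocyte markers 4 were measured. Their mean relative to AA was also lowest in SS lungs (-0.36, -0.24 and -0.31, against -0.17 to 0.08 in the other groups). None of them passed for SS minus AS or SS minus SA. In the combined adult comparison 1 passed and fell, the list's lowest difference being -0.57 and its median -0.08. The part of these cells in the Zfp36 and Nfkbia differences of the SS lungs was not tested.

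Among adults in air (SA minus AA), none of the 17 passed, as none of the 45037 did (0.0% of all; limma). All 17 differences were below 0, with a median of -0.19, against a median of 0.00 over all probe sets, of which 49.9% were above 0. Zfp36 had -0.67 ± 0.16 (unadjusted p = 0.000786, adjusted p = 0.625) and Nfkbia -0.27 ± 0.07 at its brightest (unadjusted p = 0.00114, adjusted p = 0.643), and 6 of the 17 had an unadjusted p under 0.05, as had 6.23% of all probe sets. The SA values lay entirely below the AA values at 5 of the 17, that of Zfp36 and 4 of Nfkbia, against 1.69% of all probe sets. Several probe sets read 1 gene, so the 17 are not independent. SS minus AA, smoke at both times against neither, gave 0 of the 17, where 0.4% of all probe sets passed, and 7 had an unadjusted p under 0.05, as had 10.3% of all (limma). Nfkbia was nearest there, with 0.37 ± 0.09 at 1438157_s_at (adjusted p = 0.131), and Zfp36 had -0.40 ± 0.17 (adjusted p = 0.425). These comparisons share samples with those of adult smoke, since the SA lungs serve both here and against SS.

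The interaction asked whether the adult difference depended on the exposure in utero, as SS minus SA less AS minus AA. It passed at 0 of the 17, where 0.131% of all probe sets passed, and 3 had an unadjusted p under 0.05, as had 9.11% of all (limma). Zfp36 was nearest, at -1.06 ± 0.24 (95% interval -1.58 to -0.54, unadjusted p = 0.000557, adjusted p = 0.12). Its adjusted p ranged from 0.0194 to 0.259 over the alternatives, and it passed without the averaged AS sample (-1.29). Nfkbia had 0.19 ± 0.10 at its brightest (95% interval -0.02 to 0.41, adjusted p = 0.61), so a larger adult difference after SHS in utero was not shown. Bcl3 had 0.48 ± 0.19 (adjusted p = 0.453) and Zc3h12a -0.34 ± 0.16 (adjusted p = 0.539).

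**Figure D3:**
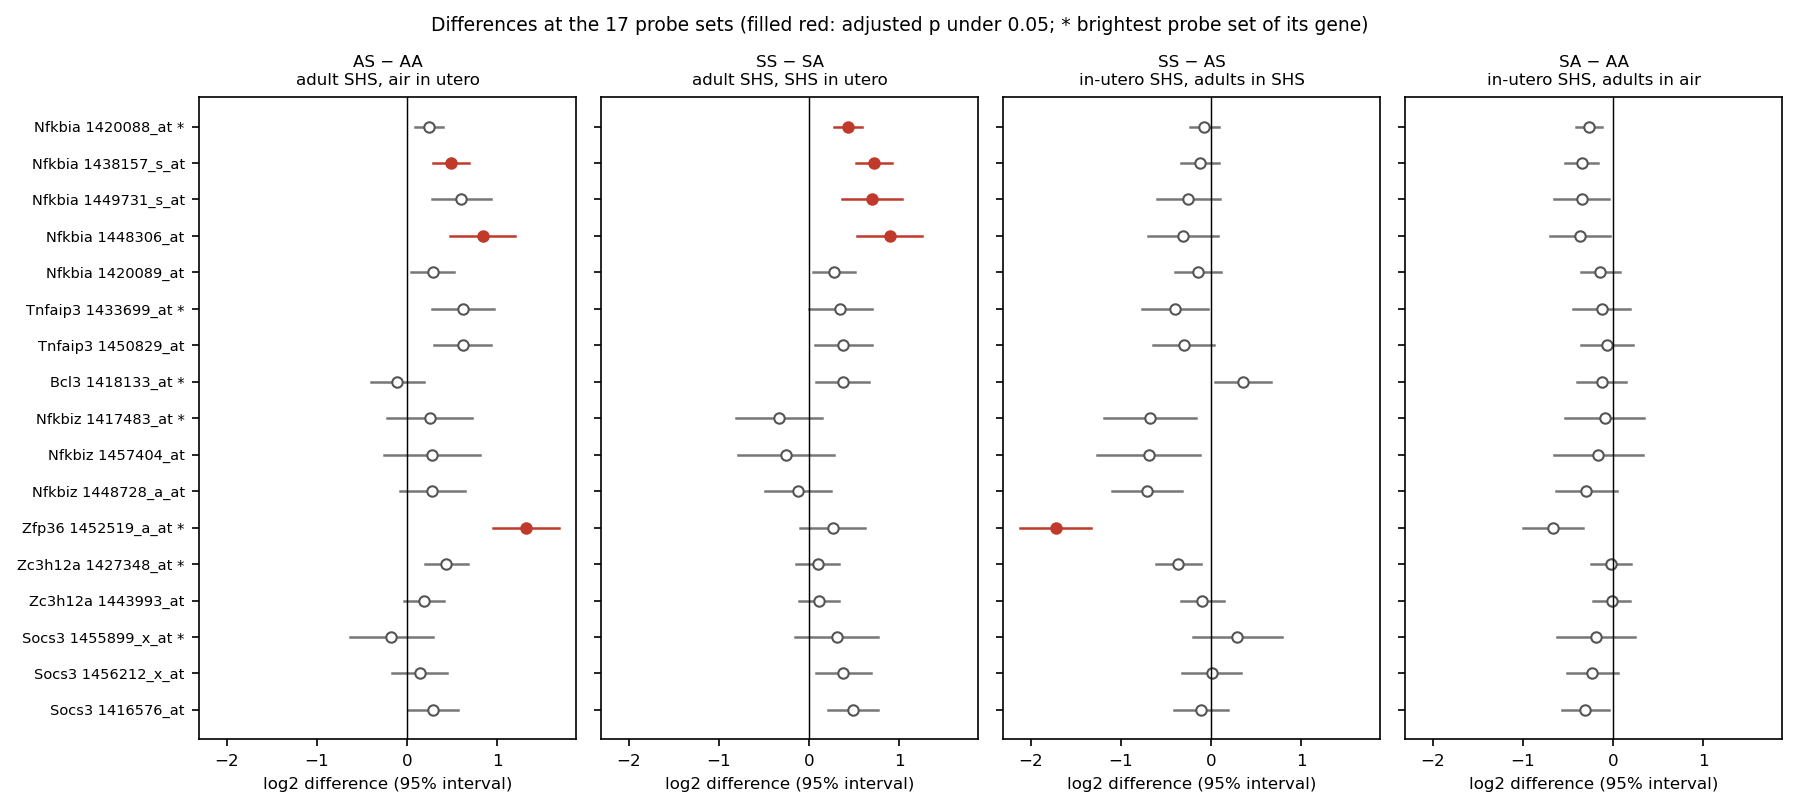
Log2 differences with their 95% intervals at all 17 probe sets in 4 comparisons, the 2 of adult SHS at the left and the 2 of in-utero SHS at the right; red points passed the adjusted threshold and stars mark the brightest probe set of a gene. Zfp36 stands at 1.32 for AS minus AA and at -1.73 for SS minus AS, while the called points for SS minus SA are all Nfkbia, and no point of SA minus AA lies above 0.

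Related genes of the pathway were counted by role. Of 15 other NF-kB inhibitors and deubiquitinases measured, 0 rose in either adult pair or the combined comparison, and 2 fell in the combined one, Nfkbie, which encodes IkBε, by 0.43 on the log2 scale (adjusted p = 0.0166) and N4bp1, an inhibitor of NF-kB activation, by 0.21. Their median there was 0.00, against 0.01 over all probe sets. Nfkbid, another atypical IkB gene, fell by 0.88 for SS minus AS (adjusted p = 0.0254) and had 0.66 for AS minus AA (adjusted p = 0.0539). Of 10 other mRNA decay genes, 1 fell, Zfp36l2, a relative of Zfp36, by 0.46 for SS minus AS (adjusted p = 0.0469), and 0 passed in the adult comparisons, where Zfp36l1 had -0.34 for SS minus SA (adjusted p = 0.066). Of 15 other SOCS and JAK-STAT brakes, 1 rose, Ptpn1, a phosphatase acting on JAK kinases, by 0.38 for SS minus SA (adjusted p = 0.0469) and by 0.33 in the combined comparison (adjusted p = 0.00934). Socs2 had 0.29 for SS minus SA (adjusted p = 0.188).

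Of 12 NF-kB subunits and kinases, 1 rose, Nfkb2, the p100 precursor, by 0.32 for AS minus AA (adjusted p = 0.0367) and by 0.20 in the combined comparison, and Rela had 0.21 for AS minus AA (adjusted p = 0.225). Among 23 ligands and receptors, Tlr4, the endotoxin receptor, fell by 0.29 for AS minus AA (adjusted p = 0.0393), where 0.961% of all probe sets fell, and by 0.25 in the combined comparison. Cd14, its partner, rose by 0.38 in the combined comparison (adjusted p = 0.018), and Ifng fell by 0.51 for SS minus SA (adjusted p = 0.0333), where 0.864% of all probe sets fell. Il6 had 1.30 ± 0.54 for AS minus AA and did not pass (adjusted p = 0.198). Of 16 adaptors and signal proteins, Stat5a alone passed, and fell by 0.26 for SS minus SA (adjusted p = 0.0434).

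Of 19 other NF-kB target genes, 0 rose in any of these adult comparisons. Csf1, the macrophage growth factor, fell by 0.67 for SS minus SA (adjusted p = 0.00777) and by 0.39 in the combined comparison, and Vcam1, a leukocyte adhesion molecule, fell by 0.23 in the combined one. Ier3, an early response gene, fell by 0.62 for SS minus SA (adjusted p = 0.0497) and by 1.18 for SS minus AS (adjusted p = 0.00244). The neutrophil chemokine gene Cxcl2 had 1.97 ± 0.53 for AS minus AA (adjusted p = 0.0695). The list median was 0.12 for AS minus AA and 0.08 for SS minus SA, against 0.02 and 0.01 over all probe sets.

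Lists of genes from other inducible programmes were counted in the same way. Of 20 immediate early genes, which respond to stimuli within minutes, 5 rose for AS minus AA (Ier2 by 1.22, Junb by 1.19, Klf2 by 0.98, Dusp1 by 0.73 and Jun by 0.53), 0 passed for SS minus SA, and 10 fell for SS minus AS, with Egr1 and Fosb in the lead. Egr1 fell by 2.43 there, and Fosb fell by 2.36. In the combined adult comparison 7 of the 20 rose. Over all probe sets 2.82% rose in the combined comparison, 0.591% rose for AS minus AA and 0.357% fell for SS minus AS. Of the 20, only Klf2 passed the threshold in the interaction (-1.05, limma, adjusted p = 0.0399). The list mean relative to AA was 1.12, 1.62 and 0.25 in AS lungs, against -0.27, 0.03, 0.54 and -0.30 in AA lungs, and -0.23, -0.14 and -0.76 in SS lungs, against -0.61, -0.45, -0.68 and -0.73 in SA lungs. The averaged AS sample was low within its group here as well as for Zfp36 and Nfkbiz. Zfp36 followed the same order of groups, with AS highest and SA lowest.

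Glucocorticoids are a class of hormones that also raise Nfkbia in many cells. Of 14 genes induced by them, 10 rose for SS minus SA, 2 for AS minus AA (Errfi1 by 1.02 and Cebpd by 0.78) and 10 in the combined comparison. Over all probe sets 0.773%, 0.591% and 2.82% rose in these comparisons. The lists hold only brightest probe sets. Among all brightest probe sets tested alone, 2.58%, 0.984% and 8.24% passed in either direction. Fkbp5, a co-chaperone of the glucocorticoid receptor, rose by 1.97 for SS minus SA (adjusted p = 0.01), Per1 by 1.50, Cdkn1a by 1.49, Mt2 by 1.37, Errfi1 by 1.28 and Tsc22d3 by 1.18. The list mean relative to AA was 0.24, 0.35 and 0.53 in AS lungs, against -0.29, -0.11, 0.14 and 0.26 in AA lungs, and 0.76, 0.88 and 0.74 in SS lungs, against -0.03, -0.71, -0.57 and 0.00 in SA lungs. As for Nfkbia, the SS lungs lay entirely above the SA lungs. Unlike for Nfkbia, the AS and AA lungs overlapped, and every SS lung lay above every AS lung. Over the 14 samples the Pearson r of Nfkbia was 0.78 with this list and 0.68 with the immediate early list. After subtraction of group means these were 0.28 and 0.46. How much of the Zfp36, Nfkbia or Tnfaip3 differences goes with either list was not tested, and the labels give no hour of collection.

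**Figure D4:**
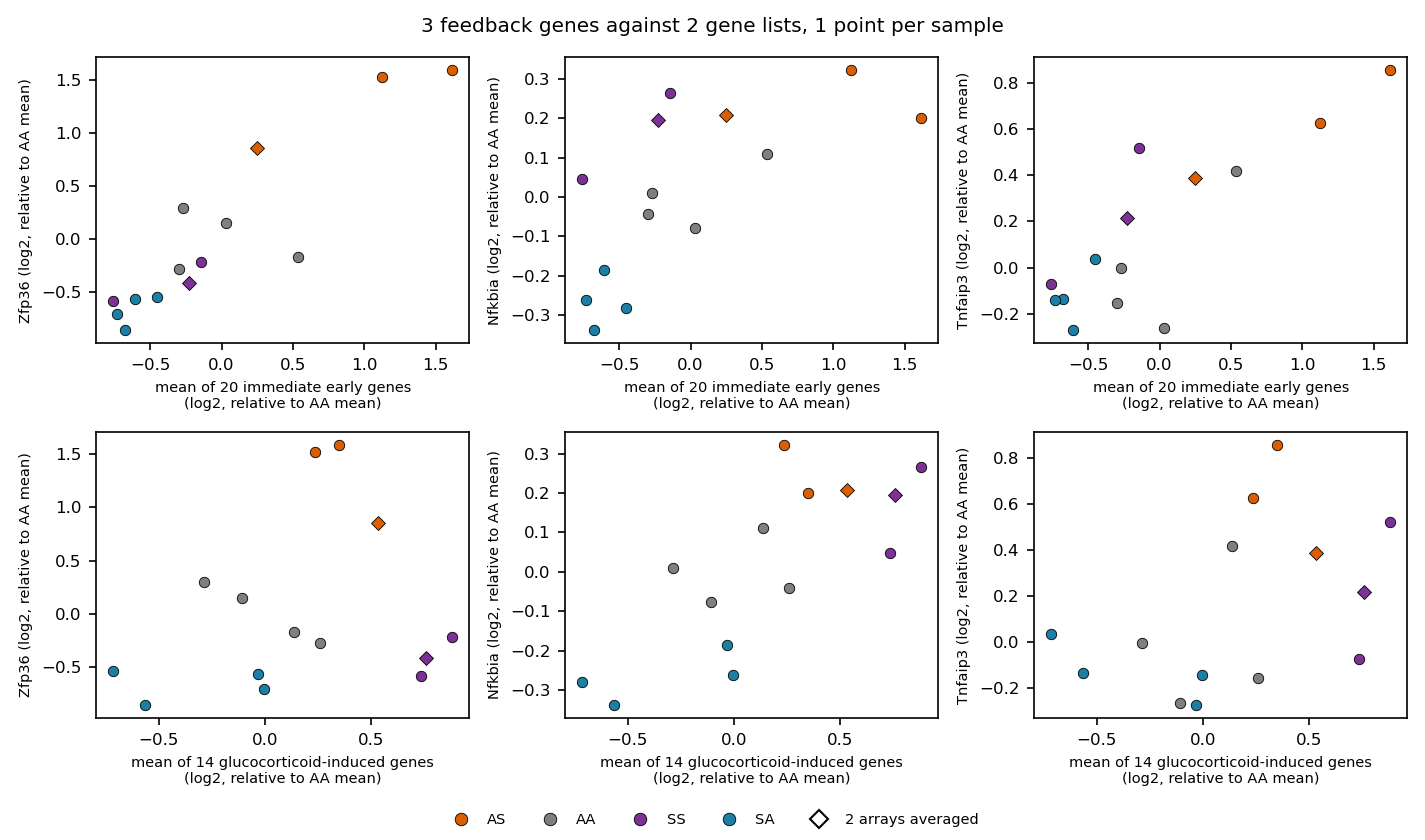
Zfp36, Nfkbia and Tnfaip3 (brightest probe sets, columns) against the mean of 20 immediate early genes (top) and 14 glucocorticoid-induced genes (bottom), each on the log2 scale relative to the AA mean, 1 point per sample; diamonds are averages of 2 near-identical arrays. Zfp36 is highest in the AS lungs, which have immediate early means of 0.25 to 1.62, and stays below the AA mean in SS lungs, whose glucocorticoid list means are 0.74 to 0.88.

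The 7 genes did not move as a block. Over the 14 samples, which share group differences, the 21 pairs of brightest probe sets ran from a Pearson r of 0.79 for Nfkbia with Tnfaip3 (0.61 after subtraction of group means) to -0.62 for Bcl3 with Nfkbiz. The mean of the 7, relative to AA, was 0.38, 0.61 and 0.13 in AS lungs, against -0.05, 0.01, 0.17 and -0.13 in AA lungs, and 0.02, 0.05 and -0.07 in SS lungs, against -0.19, -0.17, -0.29 and -0.21 in SA lungs. All SA means lay below all others, and AS replicates 1 and 2 were the highest. This mean is not scaled to the spread of each gene, so Zfp36, which had the widest range, weighs most in it. In the averaged AS sample Zfp36 had 11.94, against an AA mean of 11.08. The order of the samples without Zfp36 was not tested, and the likeness below uses the same unscaled mean.

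Among 11035 genes with a mean above 7, those whose brightest probe set followed that mean most closely were Cxcl1, a neutrophil chemokine, with r = 0.951, Emd (0.949), Atf3, a stress-induced transcription factor (0.947), Egr3 (0.937) and Nr4a1 (0.937). Uhrf1bp1 (r = -0.939) and Irf1, an interferon-induced transcription factor (r = -0.929), ran most nearly opposite. Singly, Zfp36 was most like Ier2 (0.974) and Junb (0.966), Nfkbia most like Errfi1 (0.954) and, next and nearly level, E230029C05Rik (0.932) and Rasd1 (0.931), and Tnfaip3 most like Srf (0.950) and Adamts1 (0.937). The closest for the others were Jund for Zc3h12a (0.888), Camk1d for Nfkbiz (0.860), Slc7a1 for Bcl3 (0.826) and Nufip2 for Socs3 (0.813). These correlations over 14 samples are descriptions of the closest among many genes, and the samples share their groups.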

How the data were processed

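The deposited values are log2 expression, judged by their range of 2.4 to 15.11. How the authors normalized and summarised the probes is not given in the sources used here; the submitters' processing notes name limma only. Of 45101 probe sets, 64 controls were left out. Symbols came from the platform annotation: 34945 tested probe sets had 1 symbol, 932 several and 9160 none. Near-identical arrays were averaged (ratios of the root mean square difference over 300 variable to 3000 stable probe sets 1.24 and 1.35, other pairs 2.84 to 5.96), and the labels call the remaining replicates biological. A mean per group was fitted to all 14 samples in R 4.3.3 by the functions lmFit, contrasts.fit and eBayes of limma 3.58.1 (10 residual degrees of freedom), with two-sided tests, Benjamini-Hochberg adjustment over 45037 probe sets per comparison and a threshold of 0.05, and the fit was tested on simulated data. Errors are standard errors unless named SD. Named in each list are some or all of the members past the threshold, at most 6 per comparison, and at most 2 others with large differences. The members and lists were chosen with earlier results of these data known. Likeness is Pearson's r over samples. No detection calls were made, and the number of arrays limits precision.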

Additional observations from a re-analysis of the deposited data

How the results depend on the processing

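The 17 called values were recomputed 388 times under the alternatives; 346 kept direction and call, 42 lost the call and 0 changed sign. Of 43 uncalled values at the brightest probe sets, recomputed 1021 times, 25 passed and 19 changed sign. Unless a reason is given, the cause was not tested.

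For AS minus AA, 3 of the 17 passed, against 8 with all 16 arrays counted separately, 5 with an intensity trend, 0 with only the AS and AA samples and 1 with both averaged samples left out. For SS minus SA, 4 passed. The combined adult comparison gave 9, against 5 with both averaged samples left out. SS minus AS gave 1, against 2 with all 16 arrays, 4 with array weights and 3 with both averaged samples left out. SS minus AA gave 0, against 1 with all 16 arrays and 1 with array weights, and the interaction 0, against 1 with array weights. With the brightest probe set of each gene only, which leaves 7 member values, counts were 1 for AS minus AA, 1 for SS minus SA and 4 for the combined comparison. Zc3h12a was among those 4 (0.27, limma, adjusted p = 0.0478). Leaving out 1 sample gave 2 to 5 for AS minus AA, 1 to 5 for SS minus SA, 6 to 9 for the combined comparison, 1 to 4 for SS minus AS, 0 for SA minus AA, 0 for SS minus AA and 0 to 1 for the interaction.

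Labels give groups the same replicate numbers but name no pairing of the animals. Deviations of same-numbered arrays correlated at -0.173 to 0.316 (median 0.0208, 24 pairs). Those of differently numbered arrays correlated at -0.459 to 0.496 (median 0.0098, 72 pairs). Of 16 arrays, 7 correlated best with an array of their own number. Whether the numbers pair animals was not tested. With the replicate block on all 16 arrays, 8 passed for AS minus AA, 3 for SS minus AS, 1 for SS minus AA and 1 for the interaction.

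Changes of sign were all of uncalled values. The largest main differences among them were 0.29 for Socs3 (SS minus AS) and 0.25 for Nfkbiz (AS minus AA). With both averaged samples left out, Socs3 had 0.10 for AS minus AA, -0.12 for SS minus AS and -0.0168 for SS minus AA, and Nfkbiz 0.16 in the combined comparison; with array weights Nfkbiz had 0.00907 there and Zc3h12a 0.00386 for SA minus AA. Without 1 sample each, the ranges that crossed 0 were -0.41 to 0.10 for Socs3, -0.21 to 0.0234 for Bcl3 and -0.10 to 0.62 for Nfkbiz (AS minus AA), -0.21 to 0.14 for Nfkbiz and -0.0535 to 0.20 for Socs3 (combined), -0.21 to 0.00611 for Bcl3, -0.22 to 0.0116 for Tnfaip3 and -0.10 to 0.0711 for Zc3h12a (SA minus AA) and -0.0168 to 0.29 for Socs3 (SS minus AA).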
